A study of Mus musculus with 6 samples.

Results

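Amino acid transporter genes were examined in whole inguinal mammary glands of 4-week-old mice, comparing a stromal knockout of Mt1-mmp with wild type. Members were the genes of the solute carrier families Slc1, Slc7, Slc36, Slc38 and Slc43, plus Slc3a1 and Slc3a2, read by the probe set with the highest mean among those that the platform annotation gives 1 gene symbol. The rule found 44 of 22180 measured genes. Slc7a6os and Slc36a1os share only the letters of a family name and are not transporters, so the families hold 42 genes. The set is wider than neutral and acidic amino acids, since Slc7a1, Slc7a2 and Slc7a3 carry the cationic amino acids arginine, lysine and ornithine, and Slc43a3 carries nucleobases.

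The stromal knockout mice were Dermo1Cre/Mt1-mmp(fl/fl), in which Cre under the Dermo1 (Twist2) locus, which is on in mesenchymal cells, deletes floxed Mt1-mmp, the gene of a membrane-anchored matrix metalloproteinase now named Mmp14. The wild-type mice were Mt1-mmp(+/+) littermates, both groups were C57BL/6J, and each group had 3 biological replicates with 1 array each. No sample here carried Dermo1Cre without the floxed allele, so Cre itself and the loss of Mmp14 cannot be told apart, and the labels do not say whether an array held tissue of 1 mouse or of several. Values are log2 signals, differences are knockout minus wild type in log2 units with the standard error (SE) of the limma fit, and a gene passed when its p-value, adjusted over all 22180 genes by Benjamini-Hochberg, was under 0.05. Signals of different probe sets are not compared as levels. The lowest 33% of genes had a mean under 2.68, and a group mean there was taken as too low to read. Where a gene with 1 such group mean passed, its difference was given as a lower bound.

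Amino acids cross membranes through carriers, and each family uses another driving force. Slc1 proteins take up glutamate or small neutral amino acids with sodium, Slc38 proteins take up glutamine and alanine with sodium, and Slc36 proteins move small amino acids with protons. Most Slc7 light chains exchange one amino acid for another and reach the membrane only when joined to a heavy chain, Slc3a2 or Slc3a1. In the mammary gland such carriers are best known for supplying milk protein synthesis during lactation, and in fat Slc7a10 and Slc36a2 are known as surface markers of adipocytes.

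Mmp14 itself read 8.57, 8.55 and 8.75 in the stromal knockout arrays, against 11.18, 10.55 and 10.90 in wild type, a fall of 2.25 ± 0.17 (limma adjusted p = 0.000454; exact two-sided permutation p = 0.1, the smallest that 3 against 3 arrays can give). Array medians lay between 3.77 and 3.89 log2 units, and correlations over all genes were 0.990 to 0.992 within groups and 0.975 to 0.983 between groups. Markers of several cell types moved with the groups. Of 18 measured luminal markers 17 fell (median -2.08), of 14 basal markers 10 fell (median -1.41), of 16 fibroblast markers 10 fell (median -0.69) and of 12 macrophage markers 7 fell (median -0.61). Of 13 white adipocyte markers 6 rose (median 0.40), of 13 thermogenic adipocyte markers 7 rose (median 1.69) and of 10 endothelial markers 2 rose (median 0.43). These counts stand beside 7.2% of all genes that fell and 5.05% that rose. The array means of each of these 7 lists did not overlap between the groups. The epithelial adhesion gene Epcam averaged 6.94 in the stromal knockout and 8.91 in wild type, the adipocyte gene Fabp4 12.84 in the stromal knockout and 12.73 in wild type, and the basal keratins Krt14 and Krt15 were under 2.68 in the knockout alone. Skeletal muscle markers set wild type 1 apart, whose mean over 18 genes lay 1.24 above the wild-type mean, against -0.42 and -0.82 for the other wild-type arrays.

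**Figure D1:**
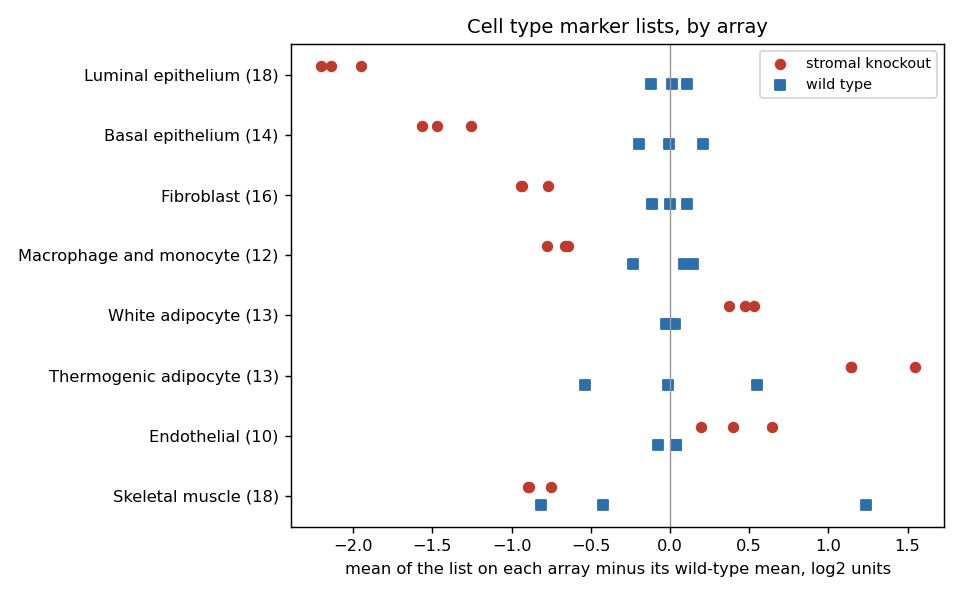
Each point is 1 array, and the horizontal axis gives the mean of a marker list on that array minus the mean of the wild-type arrays, in log2 units. Circles are stromal knockout and squares wild type, and the number of measured genes stands beside each list. The knockout arrays lay -2.20 to -1.95 from the wild-type mean for luminal markers, whereas wild type 1 stood apart for skeletal muscle.

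In the knockout, 6 transporter genes fell and 3 rose. The falls were Slc7a2, Slc38a1, Slc38a4, Slc7a5, Slc1a4 and Slc7a1, and the rises were Slc7a10, Slc43a1 and Slc36a2. The 9 genes are 21.4% of the 42 members, beside 12.2% of all genes. By direction, 7.2% of all genes fell and 5.05% rose. Falls of at least 2-fold were seen in 4 members, beside 3.07% of all genes, and no rise reached that size, beside 0.857% of all genes, the highest being 0.88 log2 units. With each array centred on its median, 5 transporter genes fell and 5 rose, and over all genes 1333 fell and 1768 rose, against 1596 and 1121 as deposited. The median difference of the 42 genes was 0.13, beside 0.03 over all genes. The value for the 42 lay between Slc7a13 and Slc7a11, both too low to read, so it shows no shift of the set. Groups did not overlap for 21 members, 10 lower and 11 higher in the knockout, where 15.4% and 17.2% of all genes lay apart in these directions. Both group means were too low to read for 9 members, and 1 group mean for 2 more, and none of these 11 passed. The glands are mixtures of cells, so fewer cells of a type and less RNA per cell cannot be told apart in any of these values.

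**Figure D2:**
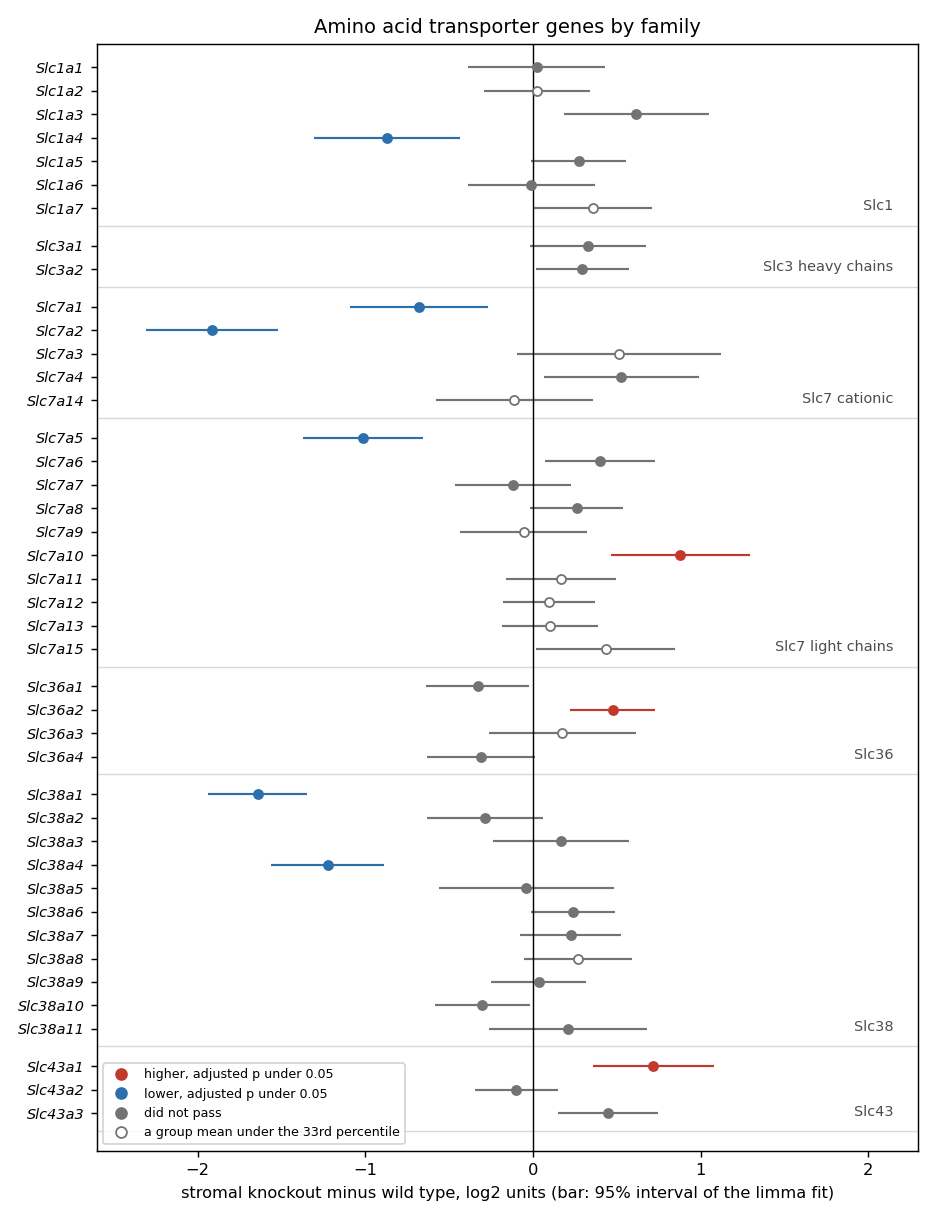
Each point is the difference of a transporter gene, stromal knockout minus wild type, in log2 units, with the 95% interval of the limma fit, grouped by family from top to bottom. Red genes rose, blue genes fell, grey genes did not pass, and open circles had at least 1 group mean under 2.68. Differences ran from -1.91 for Slc7a2 to 0.88 for Slc7a10.

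The cationic amino acid transporters held the fall with the greatest size. Slc7a2, which brings arginine and lysine into cells, read 6.18, 6.01 and 6.51 in the stromal knockout, against 7.96, 8.11 and 8.37 in wild type. It fell by 1.91 ± 0.17 to 26.5% of wild type (limma adjusted p = 0.000804), and the groups lay more than a log2 unit apart at their nearest arrays. Slc7a1, the widespread carrier of the same substrates, read 5.29, 5.35 and 5.88 in the stromal knockout, against 6.20, 6.30 and 6.06 in wild type. It fell by 0.68 ± 0.18 (adjusted p = 0.0454), with knockout 3 close to the wild-type arrays. The call held when knockout 3 was left out and ended when any other array was (adjusted p 0.0832 to 0.139), and also with repeated quantile normalization (0.0568) and with arrays centred on their medians (0.0659).

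The other members of this branch were dim. Slc7a4, a relative without known transport activity of its own, read 3.06, 3.81 and 3.65 in the stromal knockout, against 2.87, 2.97 and 3.10 in wild type. Its difference of 0.53 ± 0.20 did not pass (limma adjusted p = 0.137), the groups overlapped through knockout 1, and without that array it passed at 0.75 (adjusted p = 0.0247). Slc7a3, a further arginine carrier, read 3.18, 3.18 and 2.33 in the stromal knockout, against 2.01, 2.57 and 2.57 in wild type, with a wild-type mean of 2.38 that is too low to read (0.51 ± 0.26, adjusted p = 0.268). Slc7a14 was too low in both groups. The family of 5 thus had 2 falls, and its median was -0.11, or 0.10 without wild type 1. Both medians are the difference of Slc7a14, so they cannot be read. With low genes left out the median was -0.68.

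The heavy chain Slc3a2, known as the CD98 heavy chain, read 9.77, 9.81 and 9.68 in the stromal knockout, against 9.56, 9.31 and 9.50 in wild type. All 3 knockout arrays were above the wild-type arrays, but the difference of 0.29 ± 0.12 did not pass (limma adjusted p = 0.165; 95% interval 0.02 to 0.57). Slc3a1, the heavy chain best known from kidney and gut, differed by 0.33 ± 0.15 (adjusted p = 0.213) and its groups overlapped.

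Among the light chains that join Slc3a2, one fell and one rose. Slc7a5, which exchanges glutamine for leucine and other large neutral amino acids, read 5.73, 6.04 and 5.64 in the stromal knockout, against 6.93, 6.60 and 6.93 in wild type. It fell by 1.01 ± 0.16 to 49.5% of wild type (limma adjusted p = 0.00654), with every knockout array under every wild-type array. Slc7a10, which exchanges small neutral amino acids such as glycine, alanine and serine, D-serine included, read 9.78, 10.30 and 10.11 in the stromal knockout, against 9.45, 9.09 and 9.01 in wild type. It rose by 0.88 ± 0.18, to 1.84-fold (adjusted p = 0.0185), the groups did not overlap, and the call was lost without knockout 2, knockout 3, wild type 2 or wild type 3 (adjusted p 0.0504 to 0.0667).

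The remaining partners of Slc3a2 did not pass. Slc7a6, which exchanges cationic for neutral amino acids, differed by 0.40 ± 0.14 (limma adjusted p = 0.112) and Slc7a8, which carries a wide range of neutral amino acids, by 0.26 ± 0.12 (adjusted p = 0.214), both without overlap of the groups. Slc7a8 read 9.92, 9.75 and 9.77 in the stromal knockout, against 9.55, 9.67 and 9.43 in wild type. Slc7a7, the partner of Slc3a2 in lysine and arginine export, differed by -0.12 ± 0.15 (adjusted p = 0.671). Slc7a11, the cystine and glutamate exchanger, had means of 1.85 in the stromal knockout and 1.68 in wild type, both too low to read. The same held for Slc7a9, a partner of Slc3a1, for Slc7a12 and for Slc7a13, and Slc7a15 was too low in wild type only. The 10 light chains had a median difference of 0.13, which lay between Slc7a13 and Slc7a11, both too low to read. With low genes left out the median was 0.26.

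Set against Slc3a2 on the same array, Slc7a5 lay 1.40, 1.13 and 1.39 log2 units below the wild-type mean ratio in the 3 knockout arrays, while wild-type arrays ran from -0.08 to 0.07. The mean ratio was -1.31 ± 0.15 in the stromal knockout and 0.00 ± 0.07 in wild type (SD, n = 3 each; exact two-sided permutation p = 0.1). The Slc7a10 ratio was 0.58 ± 0.26 in the stromal knockout and 0.00 ± 0.19 in wild type, also without overlap (exact permutation p = 0.1). For Slc7a6, Slc7a7 and Slc7a8 the ratios overlapped between the groups (exact permutation p 0.2 to 0.9). Of 9 such ratios, that of Slc7a11 was too low to read, and each exact p of 0.1 became 0.18 after Benjamini-Hochberg adjustment over the 9. The ratios were not among the planned tests. They use the same array values as the differences of their genes, so they are not separate support.

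**Figure D3:**
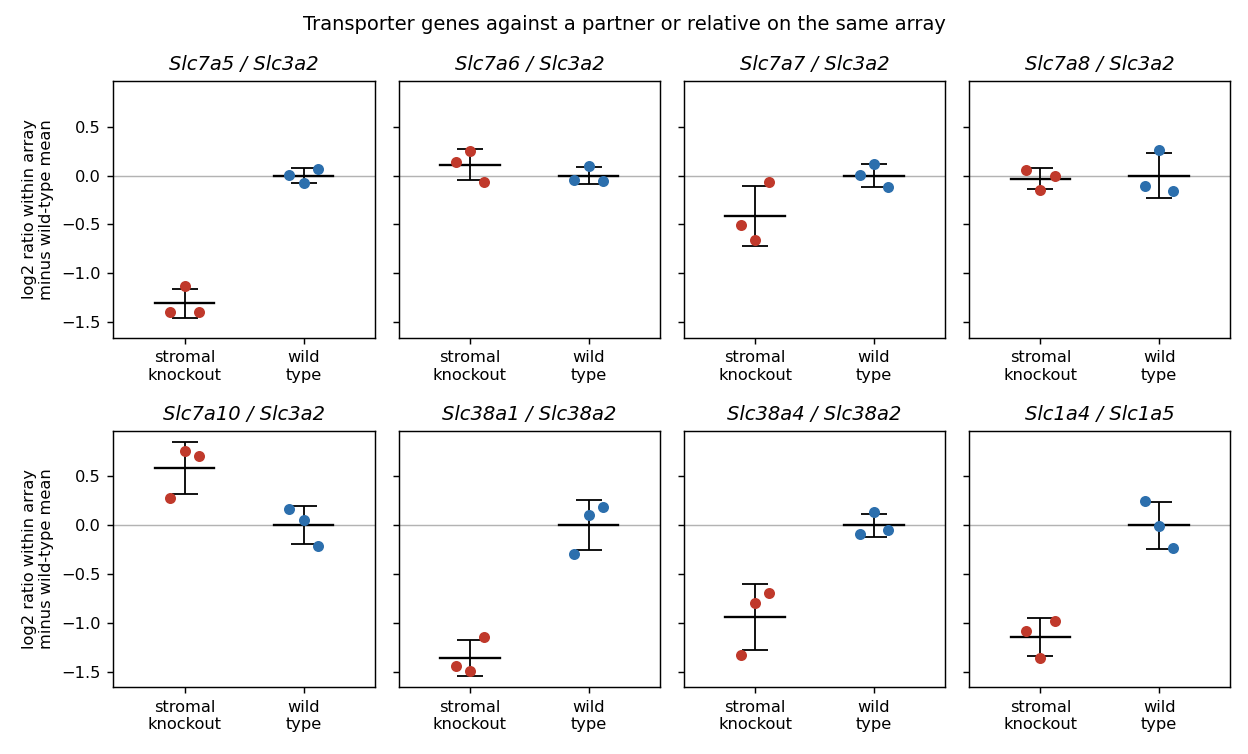
Each point is 1 array, and the vertical axis gives the log2 ratio of 2 genes on that array minus the mean ratio of the wild-type arrays. Black lines are means with SD (n = 3), stromal knockout left and wild type right in each panel. The knockout arrays lay apart for Slc7a5, Slc7a10, Slc38a1, Slc38a4 and Slc1a4, and overlapped wild type for Slc7a6, Slc7a7 and Slc7a8.

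In the Slc38 family, Slc38a1 and Slc38a4 fell. Slc38a1, a sodium-coupled carrier of glutamine and alanine, read 5.89, 5.58 and 5.90 in the stromal knockout, against 7.39, 7.43 and 7.49 in wild type. It fell by 1.64 ± 0.13 to 32.0% of wild type (limma adjusted p = 0.000485). Slc38a4, an imprinted gene whose protein carries neutral amino acids with sodium, read 5.77, 6.05 and 6.13 in the stromal knockout, against 7.37, 7.23 and 7.03 in wild type. It fell by 1.23 ± 0.15 to 42.8% of wild type (adjusted p = 0.00242), and for both genes every knockout array lay under every wild-type array.

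In the RefSeq gene order of chromosome 15, Slc38a2 stands between Slc38a1 and Slc38a4 as the next protein-coding gene to each. Slc38a2, the family member best known for its induction when amino acids are short, read 9.48, 9.23 and 9.20 in the stromal knockout, against 9.84, 9.48 and 9.46 in wild type. Its groups overlapped and its difference of -0.29 ± 0.15 did not pass (limma adjusted p = 0.278; 95% interval -0.63 to 0.06). Within arrays, the ratio of Slc38a1 to Slc38a2 was -1.36 ± 0.18 in the stromal knockout and 0.00 ± 0.26 in wild type, and that of Slc38a4 to Slc38a2 was -0.94 ± 0.34 in the stromal knockout and 0.00 ± 0.12 in wild type (SD, n = 3 each; exact two-sided permutation p = 0.1 for both). These ratios were chosen after the values of the genes had been seen.

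The other 8 members of the Slc38 family did not pass and differed by -0.30 to 0.27. Among them were Slc38a9, the lysosomal arginine sensor upstream of the growth kinase complex mTORC1 (0.03 ± 0.12, limma adjusted p = 0.892), and Slc38a7, a lysosomal glutamine exporter (0.22 ± 0.13, adjusted p = 0.329). Slc38a10 (-0.30 ± 0.12) and Slc38a6 (0.24 ± 0.11) did not overlap between the groups but did not pass either (adjusted p = 0.163 and 0.214). The second probe set of Slc38a10 differed by -0.42 ± 0.15 (limma adjusted p over probe sets = 0.131). Slc38a3 and Slc38a5, which move glutamine in exchange for protons, differed by 0.17 and -0.04, Slc38a11 differed by 0.21, and Slc38a8 was too low in both groups. The family of 11 had a median difference of 0.03.

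**Figure D4:**
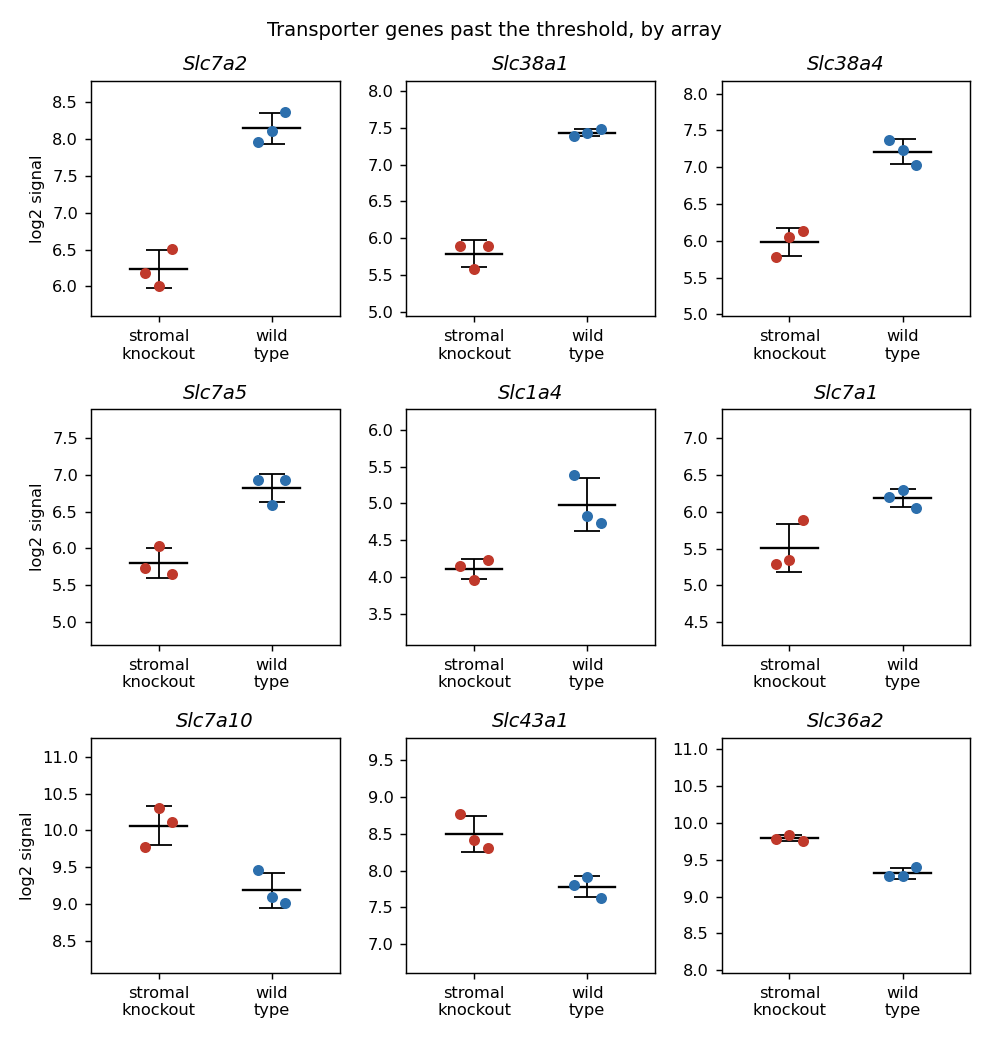
Log2 signal of the 9 transporter genes past the threshold, with 1 point per array, stromal knockout left and wild type right, and black lines for mean and SD (n = 3). Every panel spans the same number of log2 units on its vertical axis. Between their nearest arrays the groups were widest apart for Slc38a1, at 5.90 in the stromal knockout and 7.39 in wild type, and closest for Slc7a1, at 5.88 in the stromal knockout and 6.06 in wild type.

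In the Slc1 family, the neutral amino acid exchanger Slc1a4 fell. Slc1a4, which carries alanine, serine and cysteine, read 4.15, 3.96 and 4.23 in the stromal knockout, against 5.39, 4.83 and 4.73 in wild type. It fell by 0.87 ± 0.19 (limma adjusted p = 0.0233), the groups did not overlap, and the call was lost without knockout 1 (adjusted p = 0.0593) or knockout 2 (0.0818). Its relative Slc1a5, a glutamine exchanger, read 11.65, 11.73 and 11.62 in the stromal knockout, against 11.55, 11.25 and 11.38 in wild type. Knockout arrays were all above wild-type arrays, but the difference of 0.27 ± 0.12 did not pass (adjusted p = 0.206), and the second probe set of Slc1a5 differed by 0.12 ± 0.21. Within arrays the ratio of Slc1a4 to Slc1a5 was -1.14 ± 0.20 in the stromal knockout and 0.00 ± 0.24 in wild type (SD, n = 3 each; exact two-sided permutation p = 0.1), a ratio also chosen after the values had been seen.

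The acidic amino acid carriers of the Slc1 family take up glutamate and aspartate. Slc1a3, known from astrocytes, read 10.62, 10.27 and 9.99 in the stromal knockout, against 9.43, 9.82 and 9.77 in wild type. All knockout arrays were above all wild-type arrays, yet the difference of 0.62 ± 0.19 did not pass (limma adjusted p = 0.0732). It passed with an intensity trend (0.0224), with arrays centred on their medians (0.0474) and without knockout 3 (0.0434). Slc1a1, known from neurons, kidney and gut, and Slc1a6, known from cerebellum, differed by 0.02 and -0.01, and Slc1a2 and Slc1a7 were too low in both groups. The Slc1 median was 0.02.

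Of the sequences upstream of the members, RefSeq promoters of build GRCm38.p6 (250 bases before to 50 after a start) were at hand for 31 of the 42 genes, with 42 starts in all. Slc38a1, Slc7a2, Slc7a5 and Slc36a2 were among the others. The promoters were searched on both strands for TGATGCAA, the core of the element that the amino acid response factor ATF4 binds with C/EBP proteins, and for TGACNNNGC, the core of the antioxidant response element that NRF2 binds. The first stood in promoters of Slc1a4, Slc7a7 and Slc7a11, that is in 4 of the 42 starts, beside 0.895% of all 32851 promoters. Overlapping windows of Slc7a7 held the same match, so by gene it was 3 of 31, beside 1.03% of all genes with promoters. The second stood in 6 of the 42 starts, beside 12.4% of all promoters, and by gene in 5 of 31, beside 14.0%. The windows below are shown because they hold the ATF4 letters in Slc1a4, which passed, and in Slc7a7 and Slc7a11, which did not pass. Each is written 5′ to 3′ on the strand of the gene, and capitals mark the match.
Slc1a4, chr11:20332710-20332829, minus strand: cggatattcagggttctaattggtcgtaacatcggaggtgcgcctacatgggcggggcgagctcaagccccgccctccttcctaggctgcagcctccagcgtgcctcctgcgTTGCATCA
Slc7a11, chr3:50443614-50443713, minus strand: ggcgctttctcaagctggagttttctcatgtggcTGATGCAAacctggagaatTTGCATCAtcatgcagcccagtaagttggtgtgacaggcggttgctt
Slc7a7, chr14:54417912-54417952, minus strand: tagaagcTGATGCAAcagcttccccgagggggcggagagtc

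Of the 3 genes that share the ATF4 letters, 1 passed. Slc1a4, whose match spans its start from base -4, fell by 0.87 ± 0.19 (limma adjusted p = 0.0233). Slc7a7 differed by -0.12 (adjusted p = 0.671), and Slc7a11, with a match on each strand at bases -66 and -47, was too low to read. Slc7a10 and Slc38a4, which did pass, held neither motif in the windows searched.

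Among the proton-coupled carriers, Slc36a2 rose. Slc36a2, a carrier of glycine, alanine and proline, read 9.79, 9.84 and 9.75 in the stromal knockout, against 9.27, 9.27 and 9.41 in wild type. It rose by 0.47 ± 0.11, to 1.39-fold (limma adjusted p = 0.0287), the smallest change among the 9 genes. The groups did not overlap, but leaving out any single array ended the call (adjusted p 0.0551 to 0.0989). Slc36a1, its neighbour on chromosome 11 and a lysosomal exporter of small amino acids, differed by -0.33 ± 0.13 (adjusted p = 0.160), and Slc36a4 by -0.31 ± 0.14 (adjusted p = 0.208), both without overlap. The second probe set of Slc36a4 differed by -0.08 ± 0.12. Slc36a3, the neighbour of Slc36a2 on the other side, was too low in both groups. The median of the 4 genes was -0.07, and 0.02 with arrays centred on their medians.

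In the Slc43 family, Slc43a1, a sodium-independent carrier of leucine and other large neutral amino acids, read 8.78, 8.42 and 8.30 in the stromal knockout, against 7.80, 7.91 and 7.63 in wild type. It rose by 0.72 ± 0.16, to 1.65-fold (limma adjusted p = 0.0234), and the call was lost without knockout 1, knockout 2, wild type 1 or wild type 3 (adjusted p 0.0563 to 0.0788). Slc43a3, the nucleobase carrier, read 10.54, 10.51 and 10.26 in the stromal knockout, against 9.90, 9.95 and 10.11 in wild type. Its groups did not overlap and its difference of 0.45 ± 0.13 did not pass (adjusted p = 0.0624). It passed with low genes left out (0.0393), with an intensity trend (0.0111), with arrays centred on their medians (0.0331) and without knockout 3 (0.0494). In the RefSeq order of chromosome 2 a single protein-coding gene, Rtn4rl2, separates the pair. Slc43a2, another carrier of large neutral amino acids, differed by -0.10 ± 0.11 (adjusted p = 0.614).

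Genes that passed went both ways among carriers of large neutral amino acids, with Slc7a5 at -1.01 and Slc43a1 at 0.72, while Slc43a2 (-0.10) and Slc7a8 (0.26) did not pass. Among carriers of glutamine and small neutral amino acids, Slc38a1, Slc38a4 and Slc1a4 fell and Slc7a10 and Slc36a2 rose, while others, Slc38a2 (-0.29), Slc36a1 (-0.33) and Slc1a5 (0.27) among them, did not pass. This grouping by substrate was made after the values had been seen. The falls went with array means of the luminal, basal, fibroblast and macrophage lists, which were lower in every knockout array. The rises went with the white adipocyte, thermogenic adipocyte and endothelial lists, which were higher in every knockout array. Array means of an epidermis list (1 of 12 genes fell) were also lower in every knockout array, and those of an erythroid list (2 measured genes) higher. Any gene and any list that separate the groups go together in this way. The part of these markers in the results was not tested. With wild type 1 left out, where muscle markers stood highest, Slc7a2 fell by 2.01, Slc38a1 by 1.67, Slc38a4 by 1.15 and Slc7a5 by 0.96 (limma adjusted p 0.00469 to 0.0319). In that fit Slc1a4 fell by 0.67 and Slc7a10 rose by 1.01 (limma adjusted p = 0.0431 and 0.0273). The calls of Slc7a1, Slc43a1 and Slc36a2 were lost (limma adjusted p = 0.124, 0.0720 and 0.0909). The part of muscle tissue in the results was not tested.

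Other genes of amino acid transport changed in small numbers. Of 9 measured Slc6 carriers, the proline transporter Slc6a7 rose by 1.36 ± 0.11 and the neutral amino acid transporter Slc6a15 fell by 1.22 ± 0.24 (limma adjusted p = 0.000664 and 0.0157; list median 0.09). Both can be read only as lower bounds, since Slc6a7 in wild type and Slc6a15 in the knockout lay under 2.68. Of 12 further carriers, Ctns, the lysosomal cystine exporter, fell by 0.78 ± 0.13 and Slc16a10, a carrier of aromatic amino acids, rose by 0.73 ± 0.13 (adjusted p = 0.00859 and 0.0104; list median 0.04). Of 12 mitochondrial carriers, 1 passed, Slc25a13, an aspartate and glutamate carrier, which fell by 1.29 ± 0.13 (adjusted p = 0.00107), while the list median was 0.30.

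Enzymes and regulators that act on the same amino acids moved in both directions. Of 15 glutamine and glutamate enzymes 5 rose and 2 fell (median 0.22). The alanine aminotransferase Gpt rose by 1.28 ± 0.17, the proline oxidase Prodh by 0.98 ± 0.19 and glutamate dehydrogenase Glud1 by 0.76 ± 0.15, while the hexosamine pathway enzyme Gfpt2 fell by 0.76 ± 0.15 (limma adjusted p 0.00349 to 0.0159). Of 15 arginine and polyamine enzymes 3 fell and 1 rose (median -0.03). Arginase 2 (Arg2), which splits arginine, fell by 1.59 ± 0.19, the polyamine acetylating enzyme Sat1 by 0.48 ± 0.12 and the neuronal nitric oxide synthase Nos1 by 2.13 ± 0.46, the last a lower bound because its knockout mean lay under 2.68, whereas the endothelial synthase Nos3 rose by 0.48 ± 0.13 (adjusted p 0.00242 to 0.0471).

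In the list of ATF4 and the amino acid response, 5 of 26 genes rose and 3 fell, and the list median was 0.17. Stc2, a secreted stress-induced glycoprotein, fell by 1.23 ± 0.12, while Ddit4, an inhibitor of mTORC1, rose by 1.11 ± 0.20, the cysteine-forming enzyme Cth by 1.11 ± 0.19 and Phgdh, which opens serine synthesis, by 1.06 ± 0.16 (limma adjusted p 0.00120 to 0.0113). Of 19 genes for cystine, glutathione and NRF2 targets, Cth, counted in both lists, rose and the haem oxygenase Hmox1 fell by 0.61 ± 0.12 (adjusted p = 0.0149; list median -0.01). Of 25 genes of mTORC1 and amino acid sensing, 1 passed, the sestrin Sesn3, which fell by 0.77 ± 0.15 (adjusted p = 0.0149; list median 0.19). Each count stands beside 7.2% of all genes that fell and 5.05% that rose.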

How the data were processed

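Total RNA (400 ng per sample) from whole inguinal mammary gland, in 6 samples, was hybridised to Affymetrix whole-transcript arrays, per the labels' protocols. The deposited values are log2 signals that the authors made with RMA, and the submitters' processing notes name RMA and limma without versions. Base 2 was taken from the use of RMA and their range. No chip definition or probe filter is stated in these sources. Of 41345 probe sets, the platform annotation gives 23521 exactly 1 symbol and 1814 several, and the rest are unnamed here. The probe set with the highest mean per symbol left 22180 genes.

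All genes were fitted with limma 3.58.1 (lmFit, then eBayes; R 4.3.3) for the difference between the groups, with Benjamini-Hochberg adjustment. The fit was tested on simulated data, in which 21980 of 22180 genes were unchanged. It recovered 3 of 76 changes of 0.5 log2 units, 33 of 57 of 1 and 61 of 67 of 2, with 4 false calls. Far more genes passed in the real data (2717), so these shares may differ there. A member that did not pass is thus not shown to be unchanged. The number of arrays limits the precision. Ratios within arrays were tested by exact two-sided permutation. Members and gene lists were chosen with earlier results of these data known. Every member could be named, with array values for those past the threshold, the highest of each family and unpassed differences of at least 0.5, and from each list up to 4 genes past the threshold. A planned comparison of protein sequences was not run, and the members with the second promoter motif are not reported here. Alternatives are given in the closing section.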

Additional observations from a re-analysis of the deposited data

How the results depend on the processing

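Slc7a2, Slc38a1, Slc38a4 and Slc7a5 kept their direction and passed in all 13 alternative fits of each gene. The count of falls was 4 to 6 and Mmp14 passed in every alternative, at -2.42 to -2.10 with 1 array left out. The count of rises was 5 with an intensity trend, 5 with arrays centred on their medians, 0 at a minimum of 2-fold, and 0 to 3 with 1 array left out. The 3 without knockout 3 were Slc1a3, Slc43a1 and Slc43a3, and the 2 without knockout 1 were Slc7a10 and Slc7a4. No pair of Slc7a10, Slc43a1 and Slc36a2 passed together in a fit with 1 array left out. The 2 fits with 0 rises by limma, without knockout 2 and without wild type 3, had 494 and 587 rises over all genes. They had 5 and 8 higher members at an unadjusted limma p under 0.05. The share of all genes at that cut was not counted, so these 2 counts have no baseline. With the replicate number as a block (the replicate block), 1 gene rose (Slc43a1) and 5 fell, the calls of Slc7a10 (limma adjusted p = 0.0528), Slc36a2 (0.0860) and Slc7a1 (0.0887) were lost, and over all genes 689 rose and 1234 fell, against 1121 and 1596 without it. The labels do not say whether same-numbered samples were related. Correlations of their deviations from the group means over all genes were -0.05 to -0.03, which cannot settle this. Over all genes, 494 to 877 rose and 969 to 1427 fell with 1 array left out. With low genes left out, which leaves 31 members, the median of Slc36 was -0.31 and that of the cationic Slc7 genes -0.68. With 1 array left out the Slc38 median ran from -0.0020 to 0.17. Signs also turned for members near 0 that did not pass. These were Slc1a1 (array weights -0.020; with 1 array left out -0.11 to 0.16), Slc1a2 (array weights -0.0065, repeated quantile normalization -0.019; -0.092 to 0.11), Slc1a6 (array weights 0.0082, quantile 0.024, centred 0.078; -0.11 to 0.17), Slc38a5 (array weights 0.068, centred 0.049; -0.23 to 0.17), Slc7a9 (centred 0.034; -0.19 to 0.054), Slc38a9 (-0.019 to 0.10) and Slc7a14 (-0.29 to 0.10). Family medians near 0 turned too, Slc36 to 0.021 with arrays centred on their medians, the cationic Slc7 genes to 0.10 without wild type 1, Slc1 to -0.0095 without knockout 3, and Slc38 to -0.0020 without knockout 2 and -0.0025 with low genes left out. The cause of these shifts was not tested, other than that leaving out an array leaves fewer samples and leaving out low genes fewer members.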
